A study of Mus musculus with 8 samples.

Results

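The late cornified envelope Lce1 genes were examined in 8 arrays of mouse keratinocytes. They were taken as the genes whose probe set, the unit of measurement of the array, carried exactly 1 gene symbol starting with Lce1 in the annotation of the platform. This gave 9 genes of the 9294 analysed: Lce1a2, Lce1b, Lce1c, Lce1d, Lce1g, Lce1h, Lce1i, Lce1l and Lce1m, each read by 1 probe set. Of the 14 Lce1 genes in the reference table of the assembly GRCm38.p6, the other 5, Lce1a1, Lce1e, Lce1f, Lce1j and Lce1k, are not analysed here.

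The study compared 4 wild-type with 4 Nfkbiz knockout keratinocyte samples, all of the strain C57BL/6. Every sample, wild-type ones included, had received the oncogene v-rasHa, a viral activated form of Hras, by transduction 3 days earlier, and was kept in regular medium without starvation. The labels call the samples of each genotype biological replicates 1 to 4 and do not say from how many animals they came, so the p-values measure the spread between these samples. Nfkbiz encodes IkBz, a nuclear protein of the IkB family that modulates genes driven by NF-kB, and the comparison asks what its loss does to the transcripts of RAS-expressing keratinocytes. No arrays of cells without v-rasHa are analysed here, and neither is Nfkbiz itself, so the knockout was not checked from these values.

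Late cornified envelope proteins are small proteins made late in epidermal differentiation, in cells of the granular layer. Transglutaminases cross-link them, with loricrin, involucrin and the small proline-rich proteins, into the cornified envelope, the protein shell that replaces the plasma membrane of a corneocyte. Their genes lie side by side in the epidermal differentiation complex, and the LCE1 group is known for expression in normal skin, while the LCE3 group is known for induction after barrier injury and in psoriasis.

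The DNA before the start sites is shown because 3 neighbouring genes, Lce1g, Lce1h and Lce1i, were the ones that passed the test given later. The 250 bases before each start site were taken from RefSeq on GRCm38.p6, and all 9 genes were matched. The windows are chr3:92752339-92752588 for Lce1g, chr3:92765066-92765315 for Lce1h, chr3:92778900-92779149 for Lce1i, chr3:92678997-92679246 for Lce1c and chr3:92851287-92851536 for Lce1l, with Lce1c on the plus strand and the others on the minus strand. Lce1c and Lce1l stand for the 6 genes that did not pass. Capitals mark every stretch of at least 12 bases that the 3 genes have in common, and the same words where the other genes hold them.
Lce1g: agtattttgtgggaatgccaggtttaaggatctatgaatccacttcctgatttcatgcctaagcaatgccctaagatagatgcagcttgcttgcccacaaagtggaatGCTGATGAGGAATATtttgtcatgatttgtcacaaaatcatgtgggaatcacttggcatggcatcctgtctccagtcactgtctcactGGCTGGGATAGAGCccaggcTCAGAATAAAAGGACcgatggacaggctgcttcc
Lce1h: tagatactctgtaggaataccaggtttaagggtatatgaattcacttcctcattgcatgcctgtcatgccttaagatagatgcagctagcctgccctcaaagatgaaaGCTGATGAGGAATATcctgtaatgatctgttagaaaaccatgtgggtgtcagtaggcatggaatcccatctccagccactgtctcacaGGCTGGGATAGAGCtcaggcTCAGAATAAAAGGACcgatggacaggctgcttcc
Lce1i: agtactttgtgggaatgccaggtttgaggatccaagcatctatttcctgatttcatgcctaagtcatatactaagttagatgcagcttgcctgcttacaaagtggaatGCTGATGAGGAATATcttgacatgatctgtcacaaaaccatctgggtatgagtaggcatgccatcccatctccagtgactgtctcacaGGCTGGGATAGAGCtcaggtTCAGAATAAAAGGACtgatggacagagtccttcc
Lce1c: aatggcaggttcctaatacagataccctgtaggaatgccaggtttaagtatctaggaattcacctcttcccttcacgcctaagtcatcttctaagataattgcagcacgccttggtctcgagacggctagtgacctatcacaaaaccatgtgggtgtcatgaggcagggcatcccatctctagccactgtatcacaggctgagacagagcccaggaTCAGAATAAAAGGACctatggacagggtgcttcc
Lce1l: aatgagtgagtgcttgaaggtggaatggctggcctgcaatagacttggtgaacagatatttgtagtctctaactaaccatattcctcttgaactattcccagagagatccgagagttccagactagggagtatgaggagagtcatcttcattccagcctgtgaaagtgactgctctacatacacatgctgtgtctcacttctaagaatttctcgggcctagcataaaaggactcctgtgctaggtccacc

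The 3 genes held 44 capital bases each. The first run, GCTGATGAGGAATAT, began 142 bases before the start site, and 4 of the 32851 promoters in the RefSeq table held it (0.0122%), the remaining one being that of Lce1e. The second, GGCTGGGATAGAGC, began 54 bases before the start site and was found before Lce1g, Lce1h and Lce1i (0.00913% of promoters). The third, TCAGAATAAAAGGAC, began 34 bases before it, was also present before Lce1c, Lce1e and Lce1j (0.0183% of promoters), and contains a TATA-like stretch. Lce1a2 held 13 of these bases, Lce1c 15, and Lce1b, Lce1d, Lce1l and Lce1m 0.

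The promoters of Lce1g, Lce1h and Lce1i were close copies of each other. In global alignments Lce1g was identical to Lce1h at 84.5% and to Lce1i at 85.6% of positions, and Lce1h to Lce1i at 81.3%. Between 1 of these genes and 1 of the other 6, identity ran from 47.7% to 68.6% over 18 pairs, with a median of 64.3%. The 15 pairs among the other 6 ran from 47.9% to 74.3%, with a median of 50.9%, and the closest were Lce1a2 and Lce1d. The grouping into these 3 genes was made after their calls were seen, so the identities are a description.

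**Figure D1:**
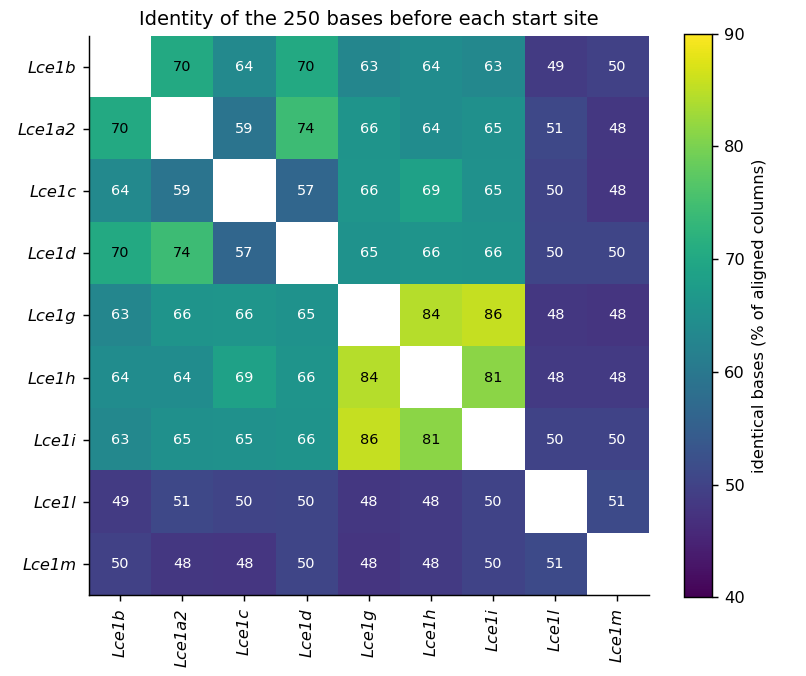
Percent identity of the 250 bases before the start site for each pair of the 9 Lce1 genes, in chromosomal order, from global alignments of RefSeq sequence. The block of Lce1g, Lce1h and Lce1i has identities of 81.3% to 85.6%, above the highest value among the other pairs, 74.3%.

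Known short motifs were spelled out and searched on both strands of the same 250 bases. The sequence ATAAAA was present before 9 of the 9 genes and in 17.0% of all promoters. On the sense strand between 40 and 20 bases before the start, where a TATA box usually lies, it was again present before 9 of 9, against 1.55% of all promoters, and in Lce1g, Lce1h, Lce1i and Lce1c it lies inside the third capital run. TGANTCA, the site of the AP-1 factors, was found before 0 of the 9 and in 6.75% of promoters. The kappaB consensus was found before 0 of the 9 and in 3.9% of promoters. Both motifs are uncommon among all promoters, so 0 of 9 shows no shortage of them, only that these letters are not in this window.

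The arrays were similar as wholes. The deposited values ranged from 1.57 to 13.9 on a log2 scale, array medians lay within 4.49 to 4.57 and lower quartiles within 3.33 to 3.39. Arrays correlated across probe sets at 0.9973 to 0.9979 within a genotype and at 0.9943 to 0.9956 across genotypes. Of 9294 genes, 827 passed limma's moderated test at a Benjamini-Hochberg adjusted p of 0.05 (8.9%), 412 lower (4.43%) and 415 higher (4.47%) in the knockout, and with each array centred on its median 314 were lower and 482 higher. The median log2 difference over all genes was -0.01. Krt5, a keratin of basal keratinocytes, averaged 13.4 on the wild-type and 13.3 on the knockout arrays, and Krt1 and Krt10 were measured too, while Krt14, Trp63 and Lor are not analysed here.

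Loss of Nfkbiz went with lower signals of 3 neighbouring Lce1 genes, by 16% for Lce1h and 23% for Lce1i, and for Lce1g by a size less certain at its low signal, and with no detected rise of any. In limma's fit 3 of 9 Lce1 genes fell, against 4.43% of all genes, 0 rose, against 4.47%, and 6 did not pass. At an unadjusted p of 0.05, 4 were lower and 0 were higher, but the share of all genes at that threshold is not given here. The median log2 difference, knockout minus wild-type, was -0.14 over the 9 genes, and 6 of the 9 values were below zero. The arrays of the genotypes did not overlap, with the knockout lower, for 4 of 9 Lce1 genes, against 7.97% of all genes. In bulk samples, fewer differentiated cells and less RNA per cell cannot be told apart.

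Lce1i showed the largest drop. Its wild-type arrays 1 to 4 read 8.80, 9.03, 8.97 and 8.73, and its knockout arrays read 8.27, 8.52, 8.53 and 8.71. Every knockout array was below every wild-type array, but the highest knockout array, replicate 4, came close to the lowest wild-type one. The means were 8.88 ± 0.142 and 8.51 ± 0.18 (SD, n = 4 each), a log2 difference of -0.38 ± 0.0961 (SE) with a limma adjusted p of 0.0335, so that the signal fell by 23%.

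Lce1h was the steadiest of the 9 among wild-type samples, whose arrays read 10.55, 10.56, 10.53 and 10.59. The knockout arrays read 10.37, 10.18, 10.28 and 10.38. The groups did not overlap, and the gap between them was wider than the whole spread of the wild-type arrays. The means were 10.56 ± 0.0265 and 10.30 ± 0.0927 (SD, n = 4 each), the log2 difference was -0.25 ± 0.057 (SE) with a limma adjusted p of 0.0183, and the signal fell by 16%.

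Lce1g gave a signal close to the array medians, and without detection calls it could not be told from background, so the size of its drop is uncertain. Its wild-type arrays read 4.49, 4.44, 4.63 and 4.43, and its knockout arrays 4.12, 4.14, 4.25 and 4.35. The groups did not overlap, with knockout replicate 4 nearest to the wild-type samples. The log2 difference was -0.28 ± 0.0687 (SE), from 4.50 ± 0.0932 to 4.22 ± 0.106 (SD, n = 4 each), with a limma adjusted p of 0.0259, and the signal fell by 17.9%.

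These 3 calls depended on single arrays. Without knockout replicate 2, or without knockout replicate 3, limma called 0 of the 9 Lce1 genes. It called only Lce1h without wild-type replicate 3 or without knockout replicate 1, and 2 genes without wild-type replicate 1 (Lce1h and Lce1i) or replicate 2 (Lce1g and Lce1h). The differences of all 3 genes stayed below zero each time, between -0.33 and -0.24 for Lce1g, -0.28 and -0.21 for Lce1h, and -0.44 and -0.30 for Lce1i over all alternatives. With quantile normalization repeated, the limma adjusted p of Lce1h was 0.053, and Lce1g and Lce1i passed. The probe sets of Lce1d, Lce1h and Lce1i carry the _x_at suffix and that of Lce1m the _s_at suffix, whose probes can bind several transcripts. Cross-hybridisation was not tested.

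**Figure D2:**
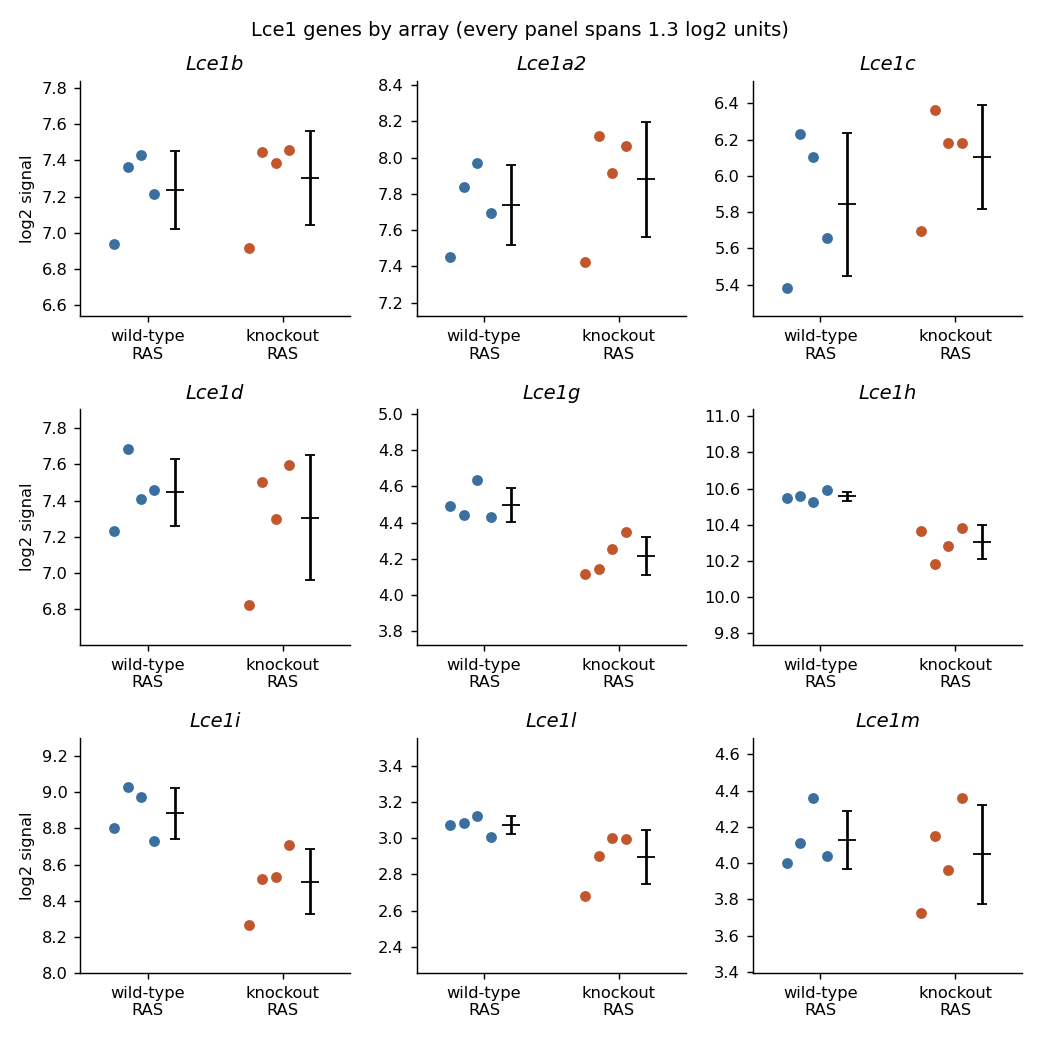
Deposited log2 signal of the 9 Lce1 genes on each of the 4 wild-type RAS and 4 knockout RAS arrays, 1 point per array with the group mean and SD. The knockout points of Lce1g, Lce1h, Lce1i and Lce1l lie below all wild-type points of the same gene, and those of the other 5 overlap.

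Lce1l had separate groups as well but missed the threshold. Its wild-type arrays read 3.07, 3.09, 3.12 and 3.01, and its knockout arrays 2.68, 2.90, 3.00 and 2.99. All of these values were below the lower quartile of every array, and 3 of the knockout values lay near the wild-type range. The log2 difference was -0.18 ± 0.0729 (SE; 95% interval -0.34 to -0.02), with a limma adjusted p of 0.187.

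The 5 other genes showed overlapping groups. Lce1c gave the highest value above zero, 0.26 ± 0.187 (SE; 95% interval -0.15 to 0.67; limma adjusted p = 0.489). Its wild-type arrays read 5.38, 6.23, 6.10 and 5.66 and its knockout arrays 5.70, 6.37, 6.18 and 6.18. The lowest array of each genotype was replicate 1.

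Lce1a2 and Lce1b behaved like Lce1c in having replicate 1 lowest in both genotypes. Lce1a2 read 7.45, 7.84, 7.97 and 7.69 on the wild-type arrays and 7.42, 8.12, 7.91 and 8.07 on the knockout arrays. The log2 difference was 0.14 ± 0.151 (SE; 95% interval -0.19 to 0.48; limma adjusted p = 0.669). For Lce1b the arrays read 6.94, 7.36, 7.43 and 7.22 in wild-type and 6.92, 7.45, 7.38 and 7.46 in knockout cells. Replicate 1 of each genotype sat well below the 3 others, and the remaining knockout arrays lay within or just above the wild-type range. Its log2 difference was 0.07 ± 0.133 (SE; 95% interval -0.23 to 0.36; limma adjusted p = 0.855).

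Lce1d and Lce1m gave values below zero that did not pass. Lce1d read 7.23, 7.68, 7.41 and 7.46 on the wild-type arrays and 6.82, 7.50, 7.30 and 7.60 on the knockout arrays, a log2 difference of -0.14 ± 0.152 (SE; 95% interval -0.48 to 0.19; limma adjusted p = 0.677). Lce1m read 4.00, 4.11, 4.36 and 4.04 in wild-type and 3.72, 4.15, 3.96 and 4.36 in knockout cells, a log2 difference of -0.08 ± 0.125 (SE; 95% interval -0.36 to 0.20; limma adjusted p = 0.791). Knockout replicate 1 was the lowest array of both genes, and knockout replicate 4 was among the highest. The means of Lce1m were below every array median. The intervals of Lce1d and Lce1m hold both zero and a drop as large as that of Lce1g, while the lower bounds of Lce1a2, Lce1b and Lce1c lie above it.

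Differences between members were tested directly, by an exact two-sided permutation of the 8 arrays for each of the 36 pairs. The smallest p that 4 arrays against 4 can give is 0.0286, so after Benjamini-Hochberg adjustment at least 21 of the 36 pairs would have had to reach it for any to pass. At the unadjusted exact p, 5 pairs reached 0.0286, and all 5 involved Lce1i; after adjustment 0 of the 36 passed, with a lowest adjusted p of 0.206. The difference of Lce1i was lower than that of Lce1a2 by a log2 value of 0.52, of Lce1b by 0.44 and of Lce1c by 0.64. With this design the test could hardly pass, so it does not settle whether Lce1g, Lce1h and Lce1i changed differently from the 6 other members.

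The members are ordered along chromosome 3 as Lce1b, Lce1a2, Lce1c, Lce1d, Lce1g, Lce1h, Lce1i, Lce1l and Lce1m, with unmeasured genes in between. Lce1g, Lce1h and Lce1i follow one another directly. Kprp, a keratinocyte proline-rich protein gene that lies before Lce1l, gave -0.21 ± 0.125 (SE; limma adjusted p = 0.383). Lce1m lies apart from the rest, beyond the Lce3 genes and Crct1, a cysteine-rich gene that fell (-0.43 ± 0.0851, SE; limma adjusted p = 0.00852).

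**Figure D3:**
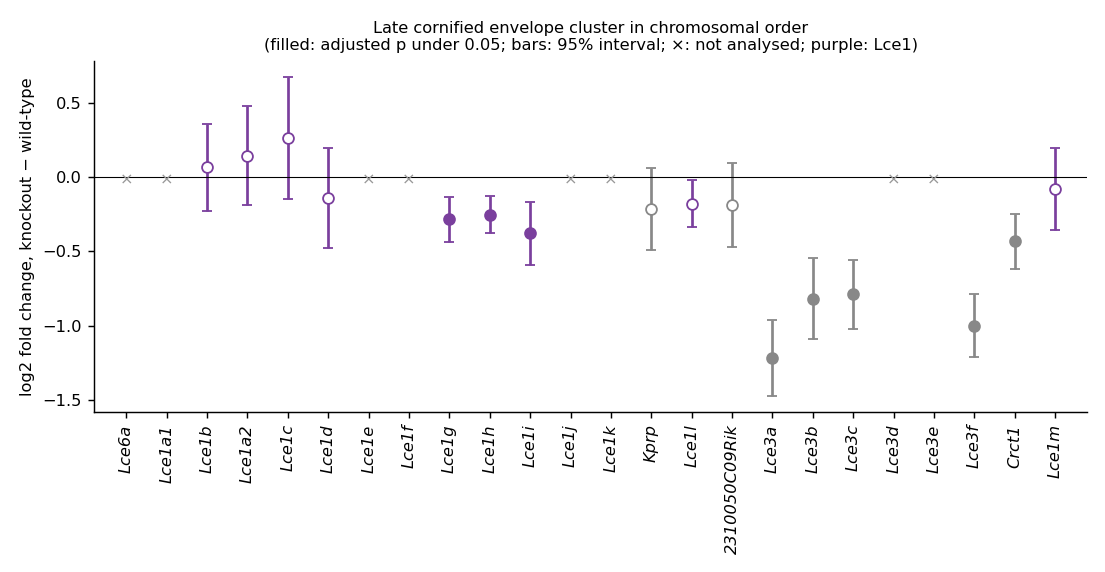
Log2 difference, knockout minus wild-type, with its 95% interval for the measured genes of the late cornified envelope cluster in chromosomal order, numbered by position and not to genomic scale. Intervals of Lce1g, Lce1h, Lce1i, Lce1l and Crct1 end below zero, those of Lce3a, Lce3b, Lce3c and Lce3f reach from -1.47 to -0.55, where Lce1i overlaps Lce3b and Lce3c, and that of Lce1m holds zero.

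Relative to Lce3a, Lce3b and Lce3c, every Lce1 gene was higher in the knockout. The Lce3 genes encode late cornified envelope proteins of the group linked to barrier injury. Lce3a read a log2 difference of -1.21 ± 0.116, Lce3b -0.82 ± 0.123 and Lce3c -0.79 ± 0.104 (SE, n = 4 arrays each; limma). In the family of 54 pairs of an Lce1 gene with Lce3a, Lce3b, Lce3c, Flg, Krt1 or Krt10, 37 passed the exact permutation test, each at an adjusted p of 0.0417, the lowest this family gives. All 27 pairs with an Lce3 gene were among them, with the Lce1 gene higher by a log2 difference of 0.41 to 1.48. The Lce3 genes belong to a list chosen with earlier results of these data known. The 27 pairs reuse the same Lce3 genes and arrays, so they are not separate tests.

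Against other differentiation genes the comparison was uneven. The adjustment covered all 54 pairs together, of which 37 reached the smallest exact p of 0.0286. Most of those 37 were Lce3 pairs. The calls of pairs with Flg, Krt10 and Krt1 depended on the Lce3 pairs in the same family, so they are weak. Flg encodes filaggrin, which binds keratin filaments in the granular layer. Flg read 0.27 ± 0.125 (SE; limma adjusted p = 0.252), and 5 of 9 Lce1 genes, Lce1d, Lce1g, Lce1i, Lce1l and Lce1m, were lower relative to it. Krt10, a keratin of the spinous layer, read 0.12 (limma adjusted p = 0.419), and Lce1g, Lce1h, Lce1i and Lce1l were lower relative to it by -0.41, -0.37, -0.50 and -0.30. Krt1, the partner of Krt10 in keratin filaments, read 0.00 (limma adjusted p = 0.996), and 1 Lce1 gene, Lce1i, was lower relative to it, by -0.38. Loricrin and involucrin, the other major envelope precursors, are not analysed here.

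Most Lce1 genes moved together from sample to sample within a genotype. Each gene's log2 values were taken as deviations from its genotype mean, and correlations were computed across the 8 arrays. Values of a pair come from the same RNA and array, so these correlations are descriptions. The 28 pairs among the genes other than Lce1h had a median Pearson r of 0.77, from 0.30 to 0.98. Lce1a2 and Lce1b were the closest pair, at 0.98. Lce1h stood apart, with a median r of -0.26 and a range of -0.46 to 0.15 against the other 8. The pattern was not particular to the Lce1 genes. With the mean Lce1 deviation, r was 0.922 for Lce3a, 0.964 for Lce3b, 0.973 for Lce3c and 0.939 for Lce3f. Crct1 gave 0.956, and Lce1g, a part of that mean, gave 0.601.

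Replicate 1 was low in this shared pattern in both genotypes. The mean deviation of the 9 genes was -0.16 on wild-type replicate 1 and -0.28 on knockout replicate 1. On replicates 2, 3 and 4 it was 0.10, 0.13 and -0.06 in wild-type and 0.09, 0.03 and 0.17 in knockout cells. Knockout replicate 1 was the lowest knockout array for 8 of 9 genes, and wild-type replicate 1 the lowest wild-type array for 5 of 9. Most of these genes moved together, so the counts are not of separate observations. The share of all genes with replicate 1 lowest is not given here. Without replicate 1 of both genotypes, an alternative chosen after seeing the data, 0 Lce1 genes passed, while the log2 differences were -0.25 for Lce1g, -0.28 for Lce1h and -0.33 for Lce1i.

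**Figure D4:**
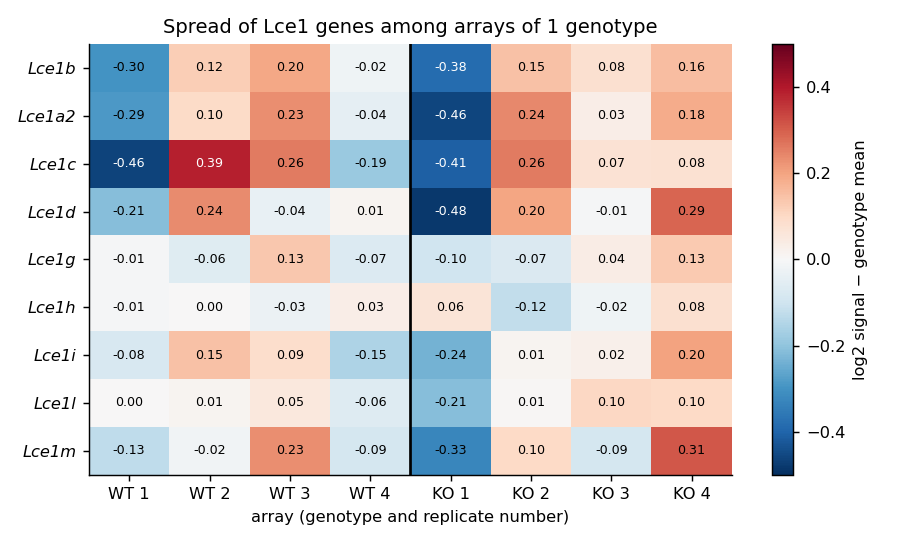
Deviation of each of the 9 Lce1 genes from its own genotype mean on each of the 8 arrays, on the log2 scale. Replicate 1 is low in both genotypes, at a mean over the 9 genes, not drawn, of -0.16 and -0.28, and Lce1h does not follow the other genes.

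The genes most like the mean Lce1 pattern across the 8 arrays were Ptgr1 (r = 0.995), Klk13 (0.990), Lbx2 (0.990), Sprr1b (0.984), Ereg (0.979) and Unc45b (0.973). Klk13 is a kallikrein-related peptidase, Sprr1b a small proline-rich envelope precursor and Ereg a ligand of the epidermal growth factor receptor. Spearman's rho was 0.929 to 1 for these genes. None of these 6 passed limma's test between genotypes, with log2 differences of -0.20 to 0.12 and adjusted p-values of 0.195 to 0.814. Unc45b had a mean signal of 2.85, below the lower quartile of every array. These 6 genes were picked for the highest r among all analysed genes outside the Lce1 group, over only 8 arrays. Values near the top of such a search are high by selection, so the correlations are given as descriptions with no test.

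The remaining cornified envelope genes gave the setting. Their lists were chosen with earlier results of these data known, and are described by counts and medians beside the 8.9% of all genes called. Of 15 measured envelope precursors outside the LCE family, 6 fell, 0 rose and 9 did not pass, with a median of -0.21. The largest drops were of the small proline-rich genes Sprr2f (-2.63 ± 0.225, SE), Sprr2d (-2.41 ± 0.0982) and Sprr2i (-1.26 ± 0.115), well beyond any Lce1 value. Of 5 other LCE and LCE-like genes 5 fell, with a median of -0.82.

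Among 19 measured genes of cross-linking, scaffold and processing 7 fell, 1 rose and 11 did not pass, with a median of -0.23. Tgm1, the transglutaminase that joins envelope proteins, fell by 0.73 on the log2 scale (SE 0.0714), Dsg1b, a desmosomal cadherin, by 0.58 (SE 0.15) and Spink5, a protease inhibitor, by 0.50 (SE 0.0817). Without wild-type replicate 2, and likewise without replicate 3, 4 of these genes fell. Of 13 differentiation regulators 6 fell and 0 rose, with a median of -0.25, among them Prdm1 (-0.68 ± 0.0688), Fos (-0.54 ± 0.0614) and Grhl1 (-0.50 ± 0.0575), which encode transcription factors. Of 13 barrier lipid genes 6 fell and 1 rose, with a median of -0.29: the lipoxygenase Alox12b fell by 0.78 (SE 0.127), Pnpla1 by 0.66 (SE 0.0638), and Alox12e rose by 1.38 ± 0.143 (SE).

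Lists of earlier stages, and a list of S100 genes, had medians near zero. Of 6 early spinous genes 1 fell, Krtdap (-0.45 ± 0.1, SE), with a median of -0.02. Of 6 basal and adhesion genes 1 fell, Col17a1 (-0.31 ± 0.0689, SE), with a median of 0.04. Of 9 S100 genes of the same complex 2 fell, S100a8 (-1.03) and S100a9 (-0.85), and 3 rose, with S100a3 at 0.50 the highest. Their median was 0.06, but it does not describe this wide range. The Lce1 median of -0.14 lay between the medians of these lists and that of the other envelope precursors.

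**Figure D5:**
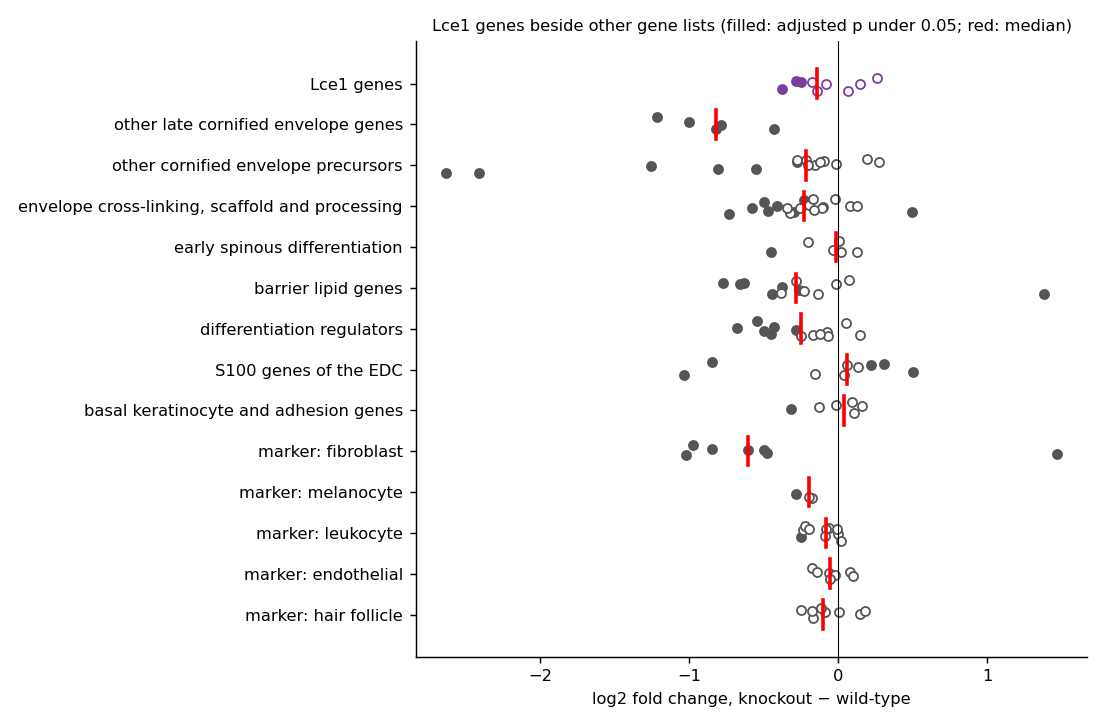
Log2 difference, knockout minus wild-type, of every measured gene in the Lce1 group and in 13 other lists, 1 point per gene, filled where limma's adjusted p was under 0.05, with the list median as a red bar. The Lce1 points lie between -0.38 and 0.26, while the measured Lce3 genes lie between -1.21 and -0.79, and Crct1, in the same list, at -0.43.

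Some markers of other cell types, mainly of fibroblasts, also differed between genotypes. Over all genes 4.43% fell and 4.47% rose. Of 7 measured fibroblast markers of 17 listed, 6 fell, among them Twist2 (-1.02) and Dcn (-0.97), and 1 rose, Postn (1.47). Their mean signal was 6.64 to 6.76 on the wild-type and 6.19 to 6.37 on the knockout arrays. Of 3 measured melanocyte markers of 11 listed, Pmel fell by 0.28, with mean signals of 9.63 to 9.72 and 9.28 to 9.57. Of 10 measured leukocyte markers of 14 listed, Tyrobp fell by 0.25, a call lost after median centring, with means of 4.47 to 4.51 and 4.35 to 4.41, near the array medians. Of 7 endothelial and 8 hair follicle and sebocyte markers 0 passed limma's adjusted threshold, with means of 4.31 to 4.34 and 5.32 to 5.39 in wild-type and 4.18 to 4.38 and 5.27 to 5.34 in knockout cells. At an unadjusted p of 0.05, 3 of 3 melanocyte, 4 of 10 leukocyte, 1 of 7 endothelial and 3 of 8 hair follicle markers were lower, and 0 of these were higher. Without the share of all genes at that unadjusted threshold, these counts do not show that such markers changed more often than other genes. The single adjusted calls of melanocyte and leukocyte markers do not show it either. The part of any of these cell type markers in the Lce1 result was not tested.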

How the data were processed

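The authors' deposited table gave a log2 value for each of 11373 probe sets on 8 one-colour arrays, and the log2 scale was read from the range of the values. Per the labels' protocols, RNA was extracted by Trizol followed by a Qiagen column, and the label was biotin. Not given in the sources used here are the summarisation, the normalization, the genome build of the probe sets, scan dates and detection calls. The platform's annotation gave 1 symbol for 9374 probe sets, several for 479 and none for 1520. Where several single-symbol probe sets named a gene, the brightest on average was kept, which gave 9294 genes, of which 9201 matched the GRCm38.p6 table by Entrez identifier.

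Knockout minus wild-type was fitted with limma 3.58.1 (lmFit, eBayes, no covariate) in R 4.3.3, with Benjamini-Hochberg adjustment over 9294 genes and a threshold of 0.05. "Fell" and "rose" mean past that threshold. Pairs of genes were compared by an exact two-sided permutation of per-array differences (SciPy 1.17.1, Python 3.11.15), adjusted within each family. Promoters were aligned with Biopython 1.88. The code was tested on simulated data. The number of arrays limits the precision. Named are the Lce1 genes, the called genes of each list (at most 3, by size of change), Flg, Krt1, Krt10, Lce3a, Lce3b and Lce3c, and the 6 genes most like the mean Lce1 deviation; Kprp and Crct1 were named for their position, and Krt5 as a keratinocyte marker, after values were seen. The members and lists were chosen with earlier results of these data known. Alternatives were repeated quantile normalization, median centring, a filter on the lowest 25% of genes, the mean of probe sets, a trended robust prior, array weights, a replicate block and leaving out each array.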

Additional observations from a re-analysis of the deposited data

Results flagged for a closer look

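In 4 of the 88 groups of 4 arrays examined (44 genes in both genotypes) 1 array stood far from the other 3 by Dixon's criterion; chance alone marks about 1 in 20 groups. The Lce1 gene among them was Lce1b, where knockout replicate 1 read 6.92 and the nearest array 7.38. Krtdap, a spinous keratinocyte gene, read 11.73 on knockout replicate 1 against a nearest array of 12.13. Alox12b read 5.03 on wild-type replicate 1 against 5.23, and Twist2 read 8.44 on wild-type replicate 2 against 8.53.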

How the results depend on the processing

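The count of Lce1 genes that fell was 3 of 9 with the deposited values, median centring, the trended robust prior, array weights and the replicate block. The 25% filter, which leaves out Lce1l, gave the same 3 genes. The mean of probe sets also gave 3, but leaves the Lce1 values as they are. Repeated quantile normalization gave 2, without Lce1h (limma adjusted p = 0.053). Leaving out 1 array gave 0 to 3 Lce1 genes, 305 to 352 genes that fell and 288 to 350 that rose. Without replicate 1 of both genotypes, chosen after seeing the data, 0 Lce1 genes fell, and 271 genes fell and 255 rose. With that setting 4 genes of cross-linking, scaffold and processing fell, as did 0 melanocyte and 0 leukocyte markers. The trended robust prior gave 2 rises among the cross-linking genes, 1 among the regulators, and falls of 2 basal genes, 3 melanocyte markers and 1 hair follicle marker. The 25% filter gave 2 early spinous genes that fell. Quantile normalization gave 0 leukocyte and 1 hair follicle marker that fell, median centring 0 leukocyte markers, and the replicate block 0 basal genes. Leaving out 1 array gave falls of 4 to 7 cross-linking genes, 1 to 2 early spinous genes, 0 to 2 leukocyte markers and 0 to 1 hair follicle markers, and rises of 0 to 1 cross-linking genes and 0 to 1 other envelope precursors.

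With the replicate number as a block, 3 Lce1 genes, 334 genes in all fell and 325 rose, with limma adjusted p-values of 0.046, 0.0419 and 0.0488 for Lce1g, Lce1h and Lce1i. Deviations of same-numbered samples correlated at 0.085, -0.0013, 0.031 and -0.049, and 1 of 4 numbers, replicate 1, correlated best with itself. These correlations cannot show whether same-numbered samples shared a preparation, and the labels do not say. Over 16 alternatives Lce1h was called in 12, and Lce1g and Lce1i in 10 each. Of the genes outside the Lce1 group, 35 were refitted under the alternatives, not including Kprp, Crct1 and Krt5, and they kept their direction and side of the threshold in 535 of 559 comparisons. In 22, over 5 genes (Dsg1b, Krtdap, Col17a1, Pmel and Tyrobp), a call was lost, and in 2 one was gained. Of the pairs of an Lce1 gene with another gene, 36 passed after quantile normalization. The mean of probe sets could not change these pairs, since each of their genes has 1 probe set. The causes were not tested. Signals of Lce1g, Lce1l and Lce1m were near or below the array medians, and without detection calls they could not be told from background.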
